A study of Mus musculus with 13 samples.

Results

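The Hoxb cluster of the mouse lies on chromosome 11 and holds the 10 genes Hoxb1, Hoxb2, Hoxb3, Hoxb4, Hoxb5, Hoxb6, Hoxb7, Hoxb8, Hoxb9 and Hoxb13. Its chromatin was followed in 4 leukaemia-derived cell lines through every listed peak that overlaps a 200 kb window, chr11:96040001-96240000 of build mm9. The window took in 128 of the 109165 peaks of the 9 peak lists. Genes were placed by approximate starts, which are rounded to 1 kb: Hoxb13 at 96.056 Mb, Hoxb9 at 96.133 Mb, Hoxb4 at 96.180 Mb, Hoxb3 from 96.185 Mb on, Hoxb2 at 96.213 Mb and Hoxb1 at 96.227 Mb. Hoxb8, Hoxb7, Hoxb6 and Hoxb5 lie between Hoxb9 and Hoxb4, in that order, and have no start of their own here. The nearest protein-coding neighbours by gene order are Ttll6 beyond Hoxb13 and Skap1 beyond Hoxb1.

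Chromatin immunoprecipitation and sequencing was done for H3K4me3, H3K27me3 and the fusion protein NUP98-PHF23 (NP23). Line 961C, labelled myeloblast, came from an acute myeloid leukaemia (AML) of an NP23 mouse. Lines 748T and 106A, labelled lymphoblast, came from pre-T LBL of other NP23 mice, and these 3 fusion lines are C57BL/6. SCL-LMO1, the control, is a lymphoblast pre-T LBL line on a C57BL/6 and C3H hybrid background, so oncogene and strain differ together. All 4 lines are cytokine independent, and each came from 1 mouse. NP23 was mapped in 961C alone, through an antibody against the V5 tag. Every line had 1 library per mark, so no difference between lines was tested; 748T and 106A formed the only group of 2.

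Hox genes encode homeodomain transcription factors that give cells their position along the body axis, and several of them keep blood stem and progenitor cells from maturing. H3K4me3 is laid down by Trithorax-type enzymes at active promoters and H3K27me3 by Polycomb complexes at silenced ones, and Hox clusters are classic targets of both. NUP98 fusions are known for holding Hox genes active in leukaemia. PHF23 brings a PHD finger, a fold that reads H3K4me3.

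The lists differ in length and hold no read totals, so the depth of the libraries is unknown. H3K4me3 lists held 17696 peaks in 961C, 17544 in 748T, 16324 in 106A and 17616 in SCL-LMO1 cells, and the NP23 list held 1629. H3K27me3 lists held 19469, 8412, 5600 and 4875 peaks in the same order of lines. For pileup heights, in reads, no scaling to depth is stated, and they were compared within a list only.

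In the AML line the middle of the cluster was one long H3K4me3 domain filled with NP23, and both ends carried H3K27me3. At the Hoxb1 end most of the H3K27me3 peaks were lost once lists were reduced to equal numbers. The main domain, chr11:96132114-96184711, was 52598 bp long and ran from the approximate start of Hoxb9 past that of Hoxb4, ending 0.290 kb short of that of Hoxb3. It therefore held Hoxb9, a gene of trunk skeleton patterning, Hoxb8, which blocks myeloid maturation when overexpressed in mice, the trunk genes Hoxb7 and Hoxb6, Hoxb5, a marker of mouse long-term blood stem cells, and the start of Hoxb4, which expands blood stem cells when overexpressed. In the RefSeq gene order (GRCm38.p6) Hoxb3 begins ahead of Hoxb4, so by that order its first start also lies inside the main domain. A smaller H3K4me3 domain of 9140 bp, chr11:96111545-96120684, lay between Hoxb13 and Hoxb9, 11.4 kb before the main one. H3K4me3 covered all 47 kb between the starts of Hoxb9 and Hoxb4 in 961C, against 5.996% in 748T, 2.88% in 106A and 2.34% in SCL-LMO1 cells. NP23 covered 98.7% of the same stretch.

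**Figure D1:**
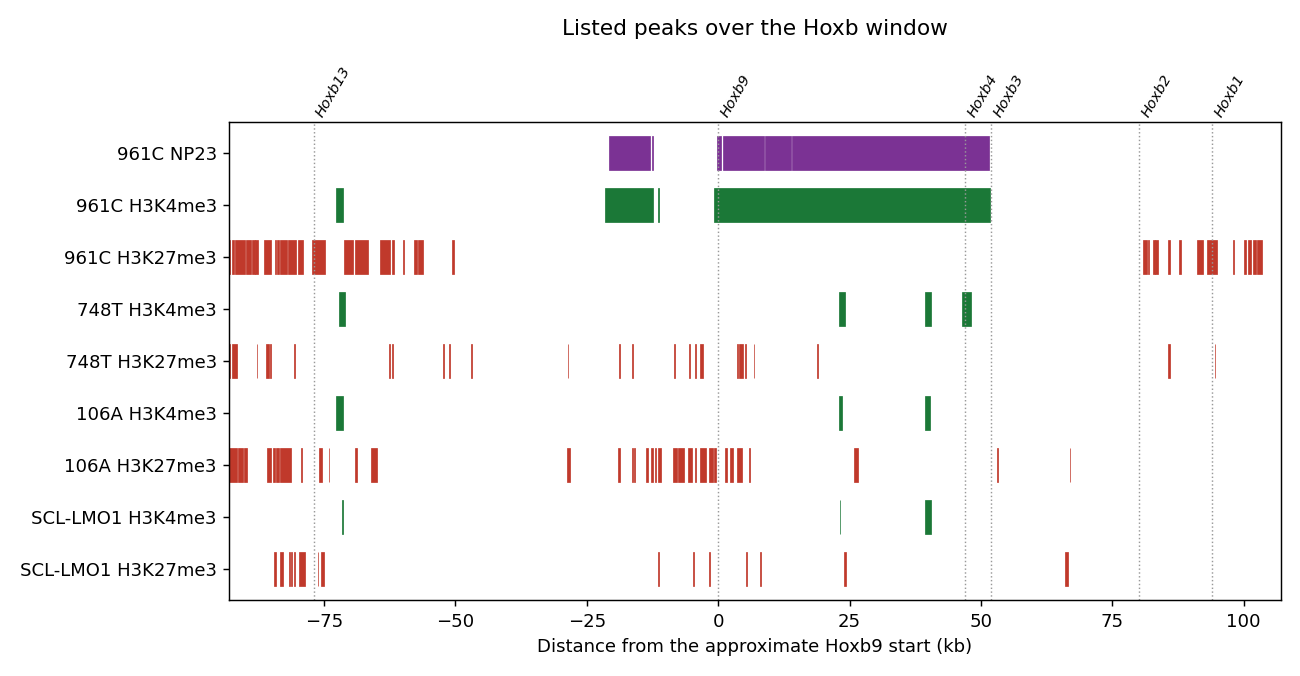
Peaks of the 9 lists over the Hoxb window, by distance in kb from the approximate Hoxb9 start. Rows are the lists, with NP23 in purple, H3K4me3 in green and H3K27me3 in red; dotted lines mark the 6 approximate gene starts, and blocks are outlined so that the shortest stay visible. The 961C domains of H3K4me3 and NP23 fill the space from Hoxb9 to Hoxb3, where 961C has no H3K27me3, while the pre-T lines show 2 or 3 short H3K4me3 peaks there.

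Promoter sequences are shown for genes under the domain and outside it. RefSeq (GRCm38.p6) gave a start region for 3 of the 10 genes, and the 250 bases ahead of each start are printed with every CG in capitals. Hoxb4 has its start inside an NP23 peak. Hoxb8 lies inside the domain by gene order, and Hoxb1, which codes for a hindbrain patterning factor, lies outside it under H3K27me3. Hoxb8 and Hoxb1 were added after their values were seen.
Hoxb8 (GRCm38.p6 chr11:96281655-96281904, plus strand): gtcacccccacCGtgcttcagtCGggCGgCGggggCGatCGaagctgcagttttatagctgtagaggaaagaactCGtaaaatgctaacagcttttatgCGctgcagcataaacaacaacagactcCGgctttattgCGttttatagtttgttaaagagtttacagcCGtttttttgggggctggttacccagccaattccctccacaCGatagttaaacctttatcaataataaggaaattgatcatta
Hoxb4 (GRCm38.p6 chr11:96318017-96318266, plus strand): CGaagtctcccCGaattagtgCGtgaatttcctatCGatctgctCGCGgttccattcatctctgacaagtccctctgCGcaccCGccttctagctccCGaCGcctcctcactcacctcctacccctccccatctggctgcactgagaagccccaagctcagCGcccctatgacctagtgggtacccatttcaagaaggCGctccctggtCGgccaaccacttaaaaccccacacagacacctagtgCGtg
Hoxb1 (GRCm38.p6 chr11:96365508-96365757, plus strand): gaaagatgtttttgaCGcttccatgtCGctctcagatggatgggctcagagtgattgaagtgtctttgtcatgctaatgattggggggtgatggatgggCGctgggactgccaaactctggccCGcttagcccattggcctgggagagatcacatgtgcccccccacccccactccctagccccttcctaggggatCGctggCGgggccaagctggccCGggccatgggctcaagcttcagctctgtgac
The motif searched was CG, which reads the same on both strands. Hoxb8 holds 12 of them, Hoxb4 holds 14 and Hoxb1 holds 7, against a median of 6 over 32851 promoters of the same length. At least as many CG as in Hoxb8, Hoxb4 and Hoxb1 occur in 33.5%, 29.4% and 46.3% of those promoters. GC content is 44.4% for Hoxb8, 58% for Hoxb4 and 59.2% for Hoxb1. Among these 3 promoters, the 2 of genes in the NP23 domain hold more CG than Hoxb1 and have a lower GC content. With 3 of the 10 genes, and CG counts that many promoters reach, no difference between the domain and its outside can be read from them.

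By gene order, 2 microRNA genes of the cluster also matter for reading the map. Mir10a sits between Hoxb5 and Hoxb4, inside the main domain. Mir196a-1 sits between Hoxb13 and Hoxb9, and whether it lies inside either domain was not analysed here. Their main mature strands, from RefSeq (GRCm38.p6), are shown with the seed, bases 2 to 8, in capitals.
mmu-miR-10a-5p: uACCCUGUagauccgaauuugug
mmu-miR-196a-5p: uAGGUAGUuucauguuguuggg
The seeds differ. miR-196a is known in the mouse for cleaving the Hoxb8 messenger RNA, and miR-10 for repressing Hox messengers in zebrafish.

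NP23 and H3K4me3 had nearly the same outline in 961C. The 6 NP23 peaks of the window covered 59245 bp, of which 59243 bp were also under H3K4me3, and H3K4me3 covered 63190 bp. NP23 filled 97.1% of the main domain and 89.4% of the smaller one. At the side of Hoxb13, NP23 began 656 bp inside the smaller domain and 678 bp inside the main one. At the side of Hoxb1, the end of NP23 was offset from the end of the domain by 2 bp for the smaller one, which it passed, and by -253 bp, inside it, for the main one. The breaks between NP23 peaks inside a domain were 172 to 316 bp long, and H3K4me3 ran through them without a break.

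The 6 NP23 peaks were unequal in size and height. The longest, chr11:96147112-96184458, was 37347 bp with a mean of 15.3 reads and a maximum of 52 reads, and it reached over the start of Hoxb4. Next to it towards Hoxb9 stood peaks of 4977 bp (maximum 44 reads) and 7920 bp (maximum 32 reads). The peak over the approximate start of Hoxb9, chr11:96132792-96133622, was 831 bp with a maximum of 19 reads. In the smaller domain, chr11:96112201-96120056 was 7856 bp with a maximum of 33 reads, and chr11:96120373-96120686 was 314 bp with a maximum of 12 reads. Within the main domain NP23 was thus tallest in the peak that reached Hoxb4 and lowest in the one over Hoxb9. The median NP23 peak of the whole list reached 13 reads, so 5 of the 6 were above it.

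H3K4me3 of 961C was about as tall in one domain as in the other. The smaller domain had a mean of 29.1 reads and a maximum of 95 reads, and the main domain a mean of 31.1 reads and a maximum of 89 reads. In its list the main domain was first of 17696 peaks by width and 815th by maximum height, and the smaller one 22nd by width and 436th by height. For NP23 the longest Hoxb peak was first of 1629 by width and 22nd by maximum height. The Hoxb domains were therefore set apart by length more than by height. The widest peak elsewhere was 14520 bp for NP23 and 29131 bp for H3K4me3.

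**Figure D2:**
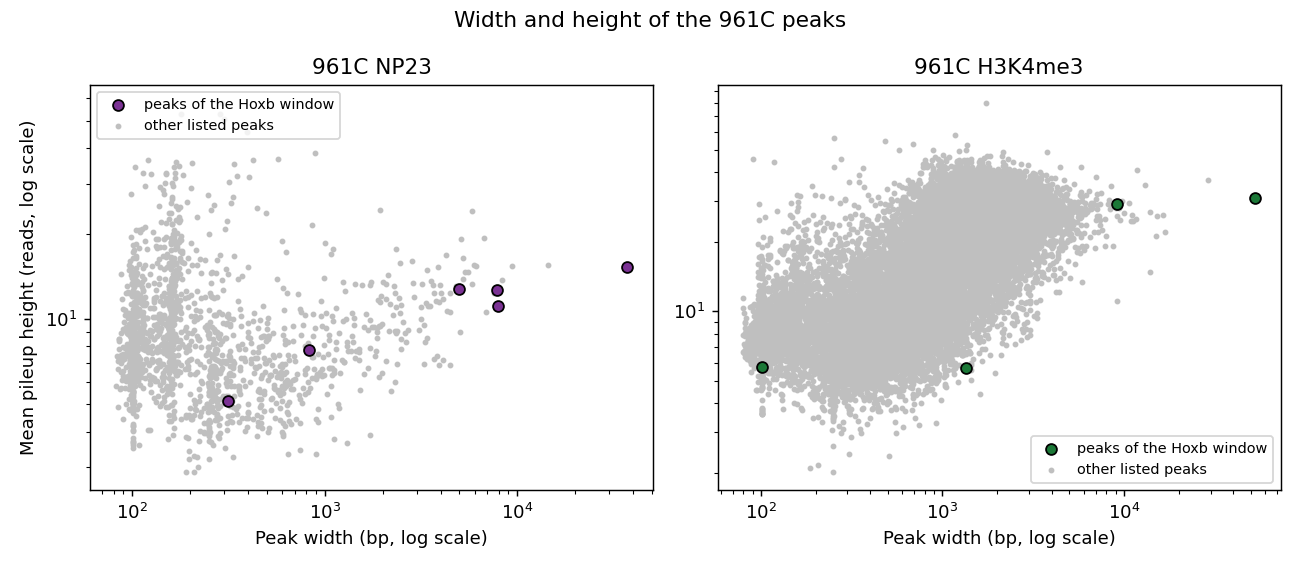
Width in bp and mean pileup height in reads of every 961C peak, both on log axes, for NP23 at left and H3K4me3 at right. Coloured points are the 6 NP23 and 4 H3K4me3 peaks of the Hoxb window and grey points all others. The rightmost point of each panel is a Hoxb peak, at 37347 bp for NP23 and 52598 bp for H3K4me3, with a mean height of 15.3 and 31.1 reads inside the range of the other peaks.

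In 5 kb bins, NP23 occupied 14 of the 40 bins of the window, where occupied means at least 1 bp of a peak. Over the genome 0.272% of bins held NP23. H3K4me3 was found in all 14 of these bins in 961C (exact binomial 95% interval 76.8% to 100%, counting error only), against 69.7% of all NP23 bins. H3K27me3 of 961C was found in 0 of the 14 (0% to 23.2%), against 12.0% of all NP23 bins. Both intervals treat bins as independent, which neighbouring bins under the same long peaks of 1 library are not, so they are too narrow. In the same 14 bins H3K4me3 was found in 4 bins of 748T, 2 of 106A and 2 of the SCL-LMO1 control. H3K27me3 was found in 6 bins of 748T, 6 of 106A and 5 of the SCL-LMO1 control. Over the genome 3.38%, 3.10% and 3.53% of bins held H3K4me3 in these lines, and 1.24%, 0.889% and 0.855% held H3K27me3. Most of these H3K27me3 bins were thinly covered: they held 201 to 1107 bp in 748T, 379 to 1906 bp in 106A and 159 to 325 bp in the SCL-LMO1 control. Full coverage by H3K4me3 was reached in 10 bins, of which 8 were also fully covered by NP23. Across the 40 bins, covered bases of NP23 and of H3K4me3 had a Pearson r of 0.992 and a Spearman rho of 0.9705 in 961C, given as a description of bins that share a cell line and long peaks. With H3K27me3, NP23 gave r = -0.44 and rho = -0.53.

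Among 13206 windows of 200 kb laid end to end over the genome, in register with the Hoxb window, the Hoxb window ranked first in 961C both for NP23 and for H3K4me3. Its 59245 bp of NP23 compare with 29305 bp in the next window. Its 63190 bp of H3K4me3 compare with 43526 bp in the next. The Hoxb window held 7.34% of all bases in the NP23 list and 0.289% of those in the H3K4me3 list of 961C. In the H3K4me3 lists of 748T, 106A and the SCL-LMO1 control it ranked 1389th, 2776th and 4078th. Many windows were empty: 5113, 4962 and 5377 held any H3K4me3 peak in these lines, and 1109 held any NP23 peak in 961C. The ranks are descriptions of these libraries.

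The pre-T lines had short H3K4me3 peaks at a few shared places in the cluster. H3K4me3 covered 63190 bp of the window in 961C, 5072 bp in 748T, 2791 bp in 106A and 1458 bp in SCL-LMO1 cells. The mean of 748T and 106A was 3932 ± 1613 bp (SD, n = 2), and the coverage of 961C was above both. The SCL-LMO1 control was below both, by less than the SD between them relative to 106A. Occupied bins numbered 15 in 961C, 5 in 748T, 3 in 106A and 3 in SCL-LMO1 cells. Over the genome 3.45% of bins in 961C, 3.38% in 748T, 3.10% in 106A and 3.53% in SCL-LMO1 cells held H3K4me3. The count of 961C lay far above that share of 40 bins. The counts of 3 to 5 bins in the pre-T lines were also above it, by less.

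H3K4me3 peaks of all 3 pre-T lines fell at 3 common sites, each also under H3K4me3 in 961C. The first, chr11:96060234-96061990, lies 4.23 to 5.34 kb past the approximate start of Hoxb13, a gene of the tail bud and prostate. There H3K4me3 reached a maximum of 12 reads in 961C, 31 reads in 748T, 37 reads in 106A and 15 reads in SCL-LMO1 cells. These heights were above 14.2%, 28.7%, 26.9% and 7.80% of the peaks of their own lists, in that order. No NP23 peak of 961C lay there. The second site, chr11:96156037-96157087, lies between Hoxb9 and Hoxb4 and inside the main domain of 961C. Its peaks were 1014 bp wide in 748T (maximum 39 reads), 550 bp in 106A (64 reads) and 95 bp in SCL-LMO1 cells (13 reads). The third, chr11:96172339-96173509, also lies between Hoxb9 and Hoxb4. Its peaks were 1171 bp in 748T (32 reads), 804 bp in 106A (60 reads) and 1006 bp in SCL-LMO1 cells (87 reads). The 87 reads of the SCL-LMO1 control were above 54.05% of its list, and its 13 reads at the second site above 3.51%. Both sites fall under the longest NP23 peak of 961C.

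The approximate start of Hoxb4 was marked in 748T and not in the other pre-T lines. The 748T peak chr11:96179368-96181084 was 1717 bp wide with a mean of 36.6 reads and a maximum of 106 reads, the tallest H3K4me3 peak of the window in that line. Its maximum was above 65.9% of the 748T list. In 106A and the SCL-LMO1 control the nearest H3K4me3 peaks to this start were 6.77 and 6.57 kb away. The 2 fusion pre-T lines thus differed from each other at Hoxb4. The remaining Hoxb peaks of 748T, and all 3 of 106A, were lower than the median of their lists, which was 76 reads in 748T and 97 reads in 106A. Counting only the taller 50% of each list left 1717 bp in 748T and 0 bp in 106A.

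**Figure D3:**
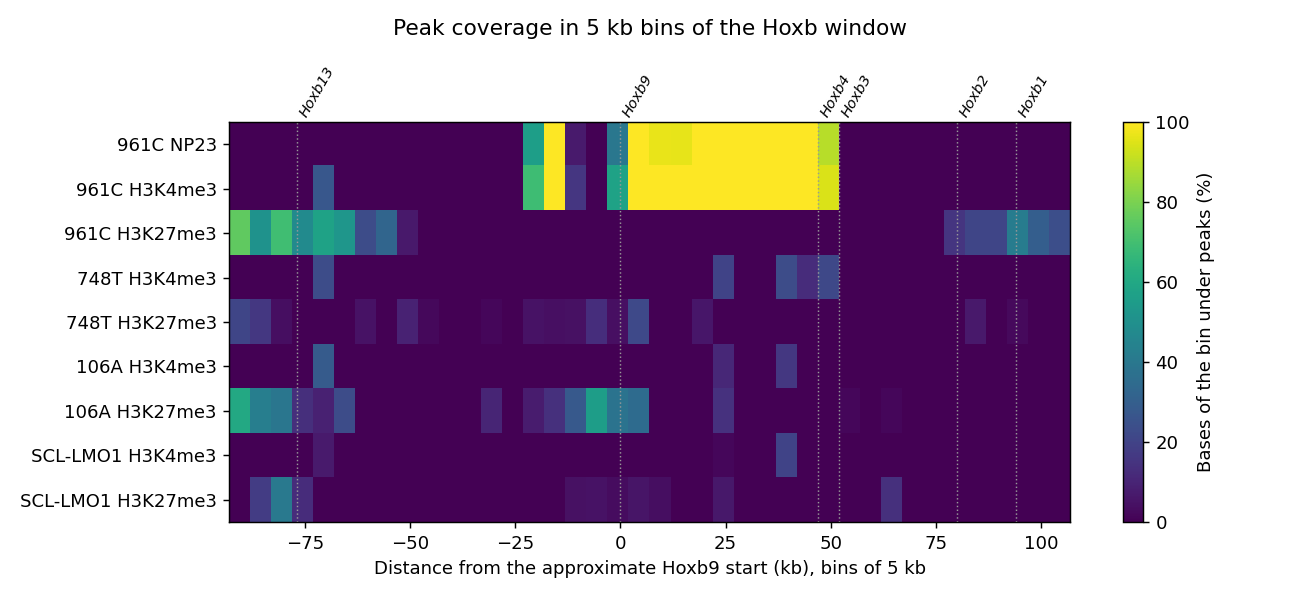
Share of each 5 kb bin under peaks, in percent, across the Hoxb window for the 9 lists, by distance in kb from the approximate Hoxb9 start. Rows are the lists, colour gives the share from 0 to 100, and dotted lines mark approximate gene starts. Full bins occur in the 961C rows of NP23 and H3K4me3 alone, and the H3K27me3 row of 961C is empty from the end of the Hoxb13 block to Hoxb2.

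H3K27me3 in 961C lay in blocks at either end of the cluster. On the Hoxb13 side, 21 peaks between the window edge and 96082729 covered 48.7% of 42.7 kb, and a peak of 2399 bp with a maximum of 23 reads, chr11:96055756-96058154, covered the approximate start of Hoxb13. On the Hoxb1 side, 13 peaks in chr11:96213894-96236395 covered 34.05% of 22.5 kb. The 961C list is the longest of the H3K27me3 lists. Among its 4875 tallest peaks, as many as the shortest list holds, 1 of the 13 remained (282 bp), against 13 of the 21 on the Hoxb13 side (15333 bp). The height limit fell among peaks of 15 reads, and with all of these kept 3 of the 13 remained (2832 bp), the peak over Hoxb1 among them, against 14 of the 21 (16280 bp). Both reductions were chosen after seeing the data. The peak chr11:96226043-96227931 there covered the approximate start of Hoxb1, and the block began 0.893 kb past that of Hoxb2, another hindbrain patterning gene. Between the blocks, 131.2 kb held no H3K27me3 peak of 961C. The smaller H3K4me3 domain began 28.8 kb from the nearest H3K27me3 peak on its Hoxb13 side, and the main domain ended 29.2 kb from the nearest on its Hoxb1 side.

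In the same 131.2 kb, whose bounds were drawn from the H3K27me3 peaks of 961C so that its own count there is 0 by definition, the pre-T lines did carry H3K27me3. There were 13 peaks in 748T covering 3157 bp, 22 in 106A covering 10324 bp and 7 in SCL-LMO1 cells covering 2120 bp. Within the main domain of 961C, H3K27me3 covered 2.696% in 748T, 5.89% in 106A and 1.496% in SCL-LMO1 cells. Within the smaller domain it covered 4.98% in 748T, 14.8% in 106A and 0% in SCL-LMO1 cells. In 748T and 106A most of it lay near Hoxb9: the fullest 5 kb bins between the blocks held 1107 bp in 748T and 2783 bp in 106A, both within 10 kb of that approximate start. Between the starts of Hoxb4 and Hoxb3 none of the 4 lines had an H3K27me3 peak. On the Hoxb1 side 748T had 2 peaks, and 106A and the SCL-LMO1 control had 0, where 961C had 13. With the lists reduced to equal numbers, 961C had 1 peak there, or 3 with tied peaks kept. In 748T, 106A and the SCL-LMO1 control the count was then 0.

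Over the whole window H3K27me3 covered 28487 bp in 961C, 6386 bp in 748T, 19732 bp in 106A and 5666 bp in SCL-LMO1 cells. The mean of 748T and 106A was 13059 ± 9437 bp (SD, n = 2), so these fusion lines were 3.09 times apart. The SCL-LMO1 control was below both, by less than that SD relative to 748T and by more than it relative to 106A. With every H3K27me3 list reduced to its 4875 tallest peaks, 961C had 15615 bp and 106A 19636 bp, which turns the order of these lines round. With the peaks tied at the height limit kept, 961C had 19112 bp and 106A 19636 bp. Occupied bins numbered 15, 16, 17 and 10 of 40 in 961C, 748T, 106A and the SCL-LMO1 control, where 2.43%, 1.24%, 0.889% and 0.855% of all bins were occupied. All 4 counts were thus above the genome's share. Among the 13206 windows, the Hoxb window ranked 14th for H3K27me3 in 961C, 48th in 748T, 2nd in 106A and 8th in SCL-LMO1 cells. It held 0.3215% of the H3K27me3 bases of 961C, 0.285% of those of 748T, 1.28% of those of 106A and 0.471% of those of the SCL-LMO1 control.

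Individual H3K27me3 peaks were short in every line beside the H3K4me3 domains of 961C, though the widest ranked high in their own lists. The widest were 2503 bp in 961C, 962 bp in 748T, 2637 bp in 106A and 1174 bp in SCL-LMO1 cells, and all 4 lay on the Hoxb13 side. By width they were 207th of 19469, 172nd of 8412, 8th of 5600 and 22nd of 4875 peaks, in that order. Median widths in the window were 527.5, 187, 498.5 and 258 bp in that order of lines, against 289, 204, 216 and 214 bp over the whole lists. The tallest peaks reached 23 reads in 961C, 16 in 748T, 17 in 106A and 20 in SCL-LMO1 cells. Medians in the window were 14.5, 12, 12 and 12 reads in that order, against 12, 12, 10 and 12 reads over the lists. The H3K27me3 peaks of the cluster were thus, by median, within a few reads of their lists.

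Merged over the lines, H3K27me3 formed 63 regions in the window, of which 40 were found in 1 line, 17 in 2 lines, 5 in 3 lines and 1 in all 4. The 6 regions of 3 or more lines all lay on the Hoxb13 side, between 96038892 and 96058154. The region of all 4 lines was chr11:96049579-96052723, ahead of the approximate start of Hoxb13. The fusion pre-T lines alone shared 8 regions, all of them between 96104213 and 96137651, around the approximate start of Hoxb9 and in the space where 961C had no H3K27me3. Of 748T peaks, 13 of 25 overlapped 106A, and of 106A peaks, 10 of 34 overlapped 748T. Of 748T peaks, 2 of 25 overlapped the SCL-LMO1 control and 2 of 15 the other way, while 7 of 34 peaks of 106A overlapped it and 8 of 15 the other way. The overlap of these lists over the whole genome is not given here. Whether the shared and unshared regions are particular to the cluster therefore cannot be read from these counts.

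**Figure D4:**
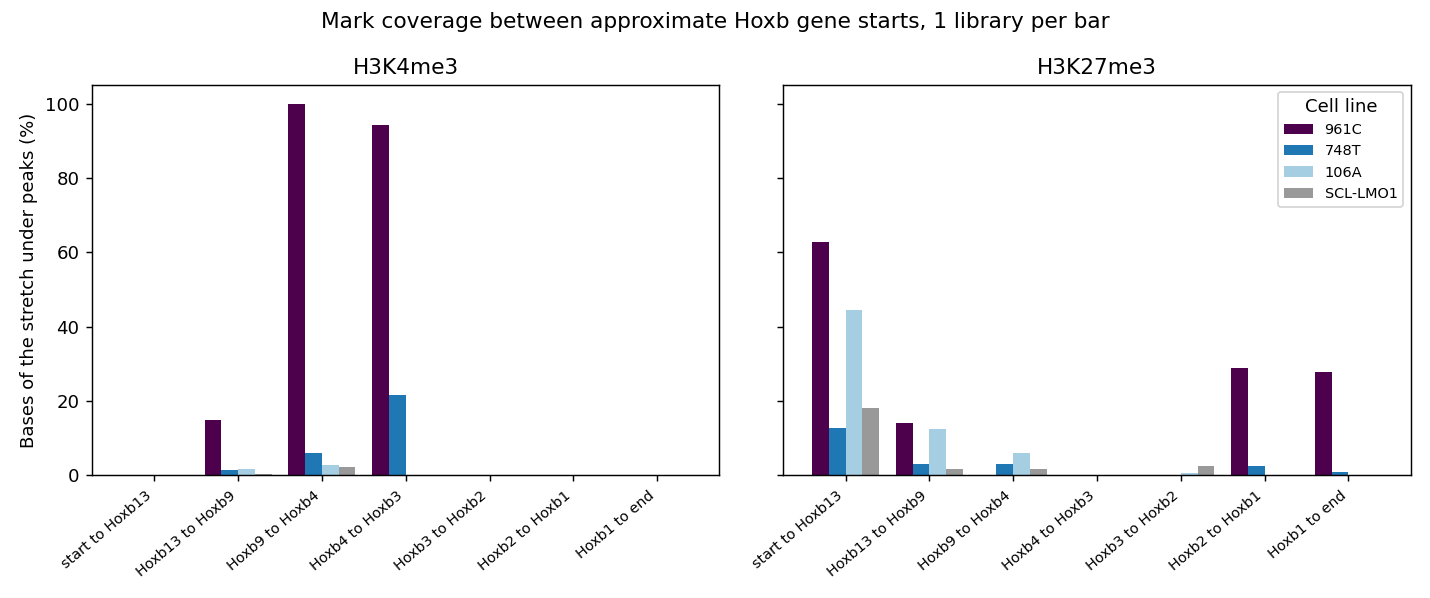
Share of bases under H3K4me3 at left and H3K27me3 at right, in percent, for the 7 stretches between the window edges and the approximate gene starts. Bars are single libraries of 961C, 748T, 106A and the SCL-LMO1 control, with no error bar because each has 1 library. H3K4me3 of 961C reaches 100% from Hoxb9 to Hoxb4 and 94.2% from Hoxb4 to Hoxb3, and H3K27me3 is highest ahead of Hoxb13 in all 4 lines.

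Read gene by gene at the 6 approximate starts, with a peak counted within 1 kb, the marks of the AML line fell at different starts. The 4 genes without a start of their own could not be counted. The share of all gene starts with each mark is not given, as no mm9 annotation was at hand. NP23 and H3K4me3 of 961C were at Hoxb9, Hoxb4 and Hoxb3, and H3K27me3 of 961C was at Hoxb13, Hoxb2 and Hoxb1. The H3K27me3 peak at Hoxb2 began 0.893 kb past the approximate start, which is less than the rounding of starts. With lists reduced to equal numbers, the H3K27me3 peaks at Hoxb2 and Hoxb1 dropped out, and with tied peaks kept they remained. Hoxb3, whose loss together with Hoxb4 weakens mouse blood stem cells, has its approximate start 0.543 kb beyond NP23 and 0.290 kb beyond H3K4me3, both less than the 1 kb to which starts are rounded. In the GRCm38.p6 gene table Hoxb3 begins ahead of Mir10a and Hoxb4, so by that gene order its first start lies inside the main domain. In 748T H3K4me3 was at Hoxb4 and H3K27me3 at Hoxb1, with a peak of 131 bp. In 106A no start had H3K4me3, and H3K27me3 was at Hoxb9. In SCL-LMO1 cells no start had H3K4me3, and H3K27me3 was at Hoxb13, with a peak of 106 bp. None of these 3 H3K27me3 peaks of the pre-T lines covered the approximate start itself. The stretch from Hoxb3 to Hoxb2 was the emptiest of the cluster, with no NP23 peak in 961C, no H3K4me3 peak in any line, and 2 short H3K27me3 peaks in 106A and 1 in SCL-LMO1 cells.

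The marks did not share a base of the window in any line: 0 bp were under both H3K4me3 and H3K27me3 in 961C, 748T, 106A and the SCL-LMO1 control. The bases under both marks over the whole genome are not given here, so this describes the window and cannot be called particular to it. Bins of 5 kb with both numbered 1, 0, 2 and 1 of 40 in that order, where 0.151%, 0.125%, 0.0184% and 0.00587% of all bins had both. In 961C the bin was the one past Hoxb13, where the H3K4me3 peak chr11:96060293-96061643 stood just ahead of the H3K27me3 peak that began at 96061747. In SCL-LMO1 cells it was the bin of the second short site between Hoxb9 and Hoxb4, and in 106A it was both of these bins.

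Beside each height the lists give a second, lower track, which the files do not explain. Its mean was 0.175 reads in the smaller and 0.266 reads in the main H3K4me3 domain, against a list median of 0.264 reads. Over the 6 NP23 peaks it was 0 to 0.281 reads with a median of 0.21 reads, against a list median of 0.134 reads. It was thus below the list median in the smaller H3K4me3 domain and close to it in the main one. Over all H3K4me3 peaks of 961C in the window its median was 0.0886 reads. Over NP23 the median was above that of the list by a fraction of a read, with single peaks at 0 and 0.120 reads below it. In 106A its median over the Hoxb peaks was 1.97 reads for H3K4me3 and 0.598 reads for H3K27me3, against 1.46 and 0.494 reads over the lists. In SCL-LMO1 cells it was 1.16 and 0.564 reads against 1.07 and 0.405, and in 748T 0.186 and 0 reads against 0.197 and 0. The part of the second track in the differences between lines was not tested.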

How the data were processed

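The authors deposited 9 peak lists, 1 for each library, giving positions and, as text, the mean and maximum pileup height in reads. BWA 0.5.9-r26, CASAVA 1.9 and build mm9 are named, per the submitters' processing notes. For the peak caller, its settings and the V5-tagged construct: not given in the sources used here. The 4 input samples were not used here. Starts count from 0 in the files and are printed from 1.

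Peaks overlapping the window by at least 1 bp were kept whole, and covered bases were clipped to it. Bins of 5 kb ran to the furthest peak end of each numbered or sex chromosome. Coverage functions were tested on simulated data. The gene table is GRCm38.p6, so mm9 gene places rest on approximate starts. Distances from Hoxb13 to Hoxb9, Hoxb4, Hoxb2 and Hoxb1 differed from GRCm38.p6 by at most 0.43 kb. Hoxb3 was not compared, since GRCm38.p6 puts its first start ahead of Hoxb4. Cell type markers were not checked, as no mm9 annotation was at hand.

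The members and lists were chosen with earlier results of these data known. Named peaks were the widest and tallest of each list in the window and all NP23 peaks. Any further peak was singled out with its values known. Python 3.11.15, numpy 2.4.6, pandas 2.3.3, scipy 1.17.1 and matplotlib 3.10.9 were used.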

Additional observations from a re-analysis of the deposited data

How the results depend on the processing

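Of 145 values recomputed with all lines kept, 106 stayed within 1.5 times the reported one. All alternatives for NP23, for H3K4me3 of 961C and for NP23 bins with H3K4me3 did so. The cause of the other shifts was not tested. Bins of 2 kb or 10 kb are given as shares of 40. For H3K4me3, 2 kb bins gave 2 bins in 748T and 1.2 each in 106A and the SCL-LMO1 control, and 10 kb bins gave 8, 6 and 6. With at least 10% of a bin required, the SCL-LMO1 control kept 1 bin. The taller 50% of peaks left 2 bins and 1717 bp in 748T, 0 bins and 0 bp in 106A, and 1 bin in the SCL-LMO1 control. For H3K27me3, 10% of a bin gave 4 bins in 748T and 4 in the SCL-LMO1 control, and 2 kb bins gave 8.4 and 5.2. In 748T the taller 50% gave 3997 bp and joining of peaks closer than 1 kb gave 9991 bp. Lists reduced to equal numbers, added after seeing the data, gave 8 bins and 15615 bp in 961C and 3997 bp in 748T.

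Bins with both marks were few and unstable. They numbered 0.4, 0 and 0.4 in 961C, 106A and the SCL-LMO1 control with 2 kb bins, and 2, 2, 4 and 2 in 961C, 748T, 106A and the SCL-LMO1 control with 10 kb bins. With the taller 50% they were 0 in 961C, 106A and the SCL-LMO1 control. With 10% of a bin they were 1 in 106A and 0 in the SCL-LMO1 control, and with peaks of at least 200 bp they were 0 in the SCL-LMO1 control. Approximate starts with H3K27me3 numbered 3 in 106A and 2 in the SCL-LMO1 control within 2 kb. With the start required inside a peak, no start had H3K27me3 in 748T, 106A or the SCL-LMO1 control (0 in each). Without NP23 pre-T replicate 1 (748T) or replicate 2 (106A), the mean of these lines ran from 2791 to 5072 bp for H3K4me3 and from 6386 to 19732 bp for H3K27me3. No paired analysis was possible because each line has 1 library per antibody and the labels give no replicate numbers. Without 748T or without 106A the H3K27me3 mean thus moved by over 1.5 times, to the other line's value. The distances of 2 kb and 0 from a start were also added after seeing the data. Unknown depth limits every comparison between lists.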
